A study of Saccharomyces cerevisiae with 22 samples.

Results

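The 9 budding yeast genes that mark the general stress response were followed across all arrays: DDR2, TMA10, RTC3, EGO4, YER053C-A, PHM7, YNL194C, MSC1 and GPG1. They are 9 of the 5449 genes that the array annotation ties to the value table, each read by 1 probe set. They were chosen by their log2 ratios to untreated cells, which were large in more than one stress, so these ratios are given as a description with no test. Saccharomyces cerevisiae of strain 4741, grown in rich medium (YPD) at 30 degrees to mid-log phase, was measured as total RNA on 22 Affymetrix arrays. Heat (40 degrees, 30 and 45 min) and KCl (0.8 M, 30 and 45 min) had 2 arrays each. Hydrogen peroxide (0.66 mM) without an earlier stress, called naive here, had 4 arrays at 15, 30, 45 and 90 min. Peroxide after 45 min of heat (heat-primed) and after 45 min of KCl (KCl-primed) had 4 arrays each at the same times. Rich medium after the same heat or KCl had 2 arrays each, at 15 and 45 min. Untreated cells had 2 arrays at time 0. A treatment at one time is a single array, the untreated arrays alone being repeats, and the labels do not say that those 2 came from separate cultures.

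In S. cerevisiae many unlike stresses switch on a shared set of genes through the related zinc finger activators Msn2 and Msn4. These proteins enter the nucleus when protein kinase A activity falls and bind stress response elements in the promoters of their targets. The shared programme is fast and usually transient, and it runs beside stress-specific programmes such as those of Hsf1 in heat, Hog1 in osmotic stress and Yap1 in peroxide. DDR2 encodes a small protein made in many stresses, and TMA10 a small protein found with ribosomes. RTC3 is related to a family of ribosome maturation factors, and EGO4 to a subunit of the vacuolar EGO complex, which controls the growth kinase TORC1. PHM7 is a membrane protein related to the osmosensitive channel protein Csc1, and YNL194C belongs to the Sur7 family of plasma membrane proteins. MSC1 was named for its part in recombination between meiotic sister chromatids. GPG1 encodes a proposed subunit of the glucose-sensing G protein module of Gpr1 and Gpa2. The product of the very short gene YER053C-A has no role given here.

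Values are log2 RMA signals, and a ratio is the log2 value of an array minus the mean of the untreated pair. The median gene of an array had a signal of 10.16 to 10.22. A background of 4.62 was set at the 95th percentile of probe sets naming no S. cerevisiae gene, and between 97.4% and 99.0% of the genes exceeded it. The 5 a-cell genes were well above that level on all 22 arrays (at least 10.05), and of 4 alpha-cell genes MF(ALPHA)1 was below it on all 22 (at most 4.41), whereas MF(ALPHA)2 (4.95 to 7.45), STE3 (6.15 to 8.15) and SAG1 (8.24 to 8.84) were above it on all 22. The 3′ minus 5′ signal of the ACT1 control, a sign of RNA quality, lay between 0.36 and 0.68. That of the SPT15 control was 1.62 and 1.71 on the heat arrays and at most 1.56 elsewhere, while SRB4 gave 1.42 and 1.81 in KCl and no less than 1.88 on the other arrays; the part of these gaps in the results below was not tested.

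Untreated cells held the 9 genes at mean levels between 5.43 (YNL194C) and 8.97 (MSC1), and the untreated pair differed by 0.01 to 0.32 for them. DDR2 had ratios of 5.53 and 5.10 in naive peroxide at 30 and 45 min, 5.96 and 6.24 in KCl at the same times, and 6.0 and 5.70 in heat. TMA10 stood at 4.17 and 4.78 in naive peroxide, 5.81 and 6.01 in KCl, and 6.32 and 5.69 in heat. These genes were high in all 3 stresses, with every value far outside the untreated pair. RTC3 had 4.64 and 4.62 in naive peroxide, 6.16 and 6.30 in KCl, and 5.91 and 5.01 in heat. YER053C-A had 3.99 and 2.77 in naive peroxide, 5.77 and 5.36 in KCl, and 5.86 and 5.50 in heat. EGO4 had 2.30 and 2.36 in naive peroxide, 5.24 and 5.38 in KCl, and 5.82 and 4.90 in heat. For both, peroxide was below the other stresses, and KCl and heat overlapped.

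PHM7 and YNL194C were highest in KCl. PHM7 had ratios of 1.26 and 1.21 in naive peroxide, 6.86 and 7.66 in KCl, and 5.20 and 3.40 in heat. YNL194C had 4.50 and 2.65 in naive peroxide, 7.09 and 7.40 in KCl, and 5.04 and 3.47 in heat. The KCl values of both genes lay above all their other values. MSC1 had 3.65 and 3.87 in naive peroxide, 5.22 and 5.48 in KCl, and 4.79 and 3.70 in heat. GPG1 had 1.17 and 1.92 in naive peroxide, 1.21 and 2.82 in KCl, and 4.48 and 4.72 in heat, where both values lay above all those of the other first stresses.

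All 9 genes were at least 2-fold above untreated cells at both 30 and 45 min in heat, where 10.7% of all genes were. The same 9 were so in KCl (13.6% of all genes) and in naive peroxide (5.58%); the choice of the genes fixes these counts, and nothing is read from them. All genes were also ordered by the second largest of their mean rises in heat, KCl and naive peroxide. TMA10, DDR2, YER053C-A and RTC3 held places 1 to 4, EGO4 was at 6, and PHM7, YNL194C and MSC1 were at 17, 18 and 19. GPG1 was at 189, with 180 genes outside the set above it. It ranked 16 in heat, 326 in KCl and 182 in naive peroxide, so it is a strong marker of heat in these arrays and a weaker one of the other stresses. PHM7 ranked 3 in KCl and 273 in naive peroxide. The genes outside the set with the largest second rise were CYC7 (a cytochrome c isoform), SOL4 and ALD3, at 5.37, 5.15 and 4.90.

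**Figure D1:**
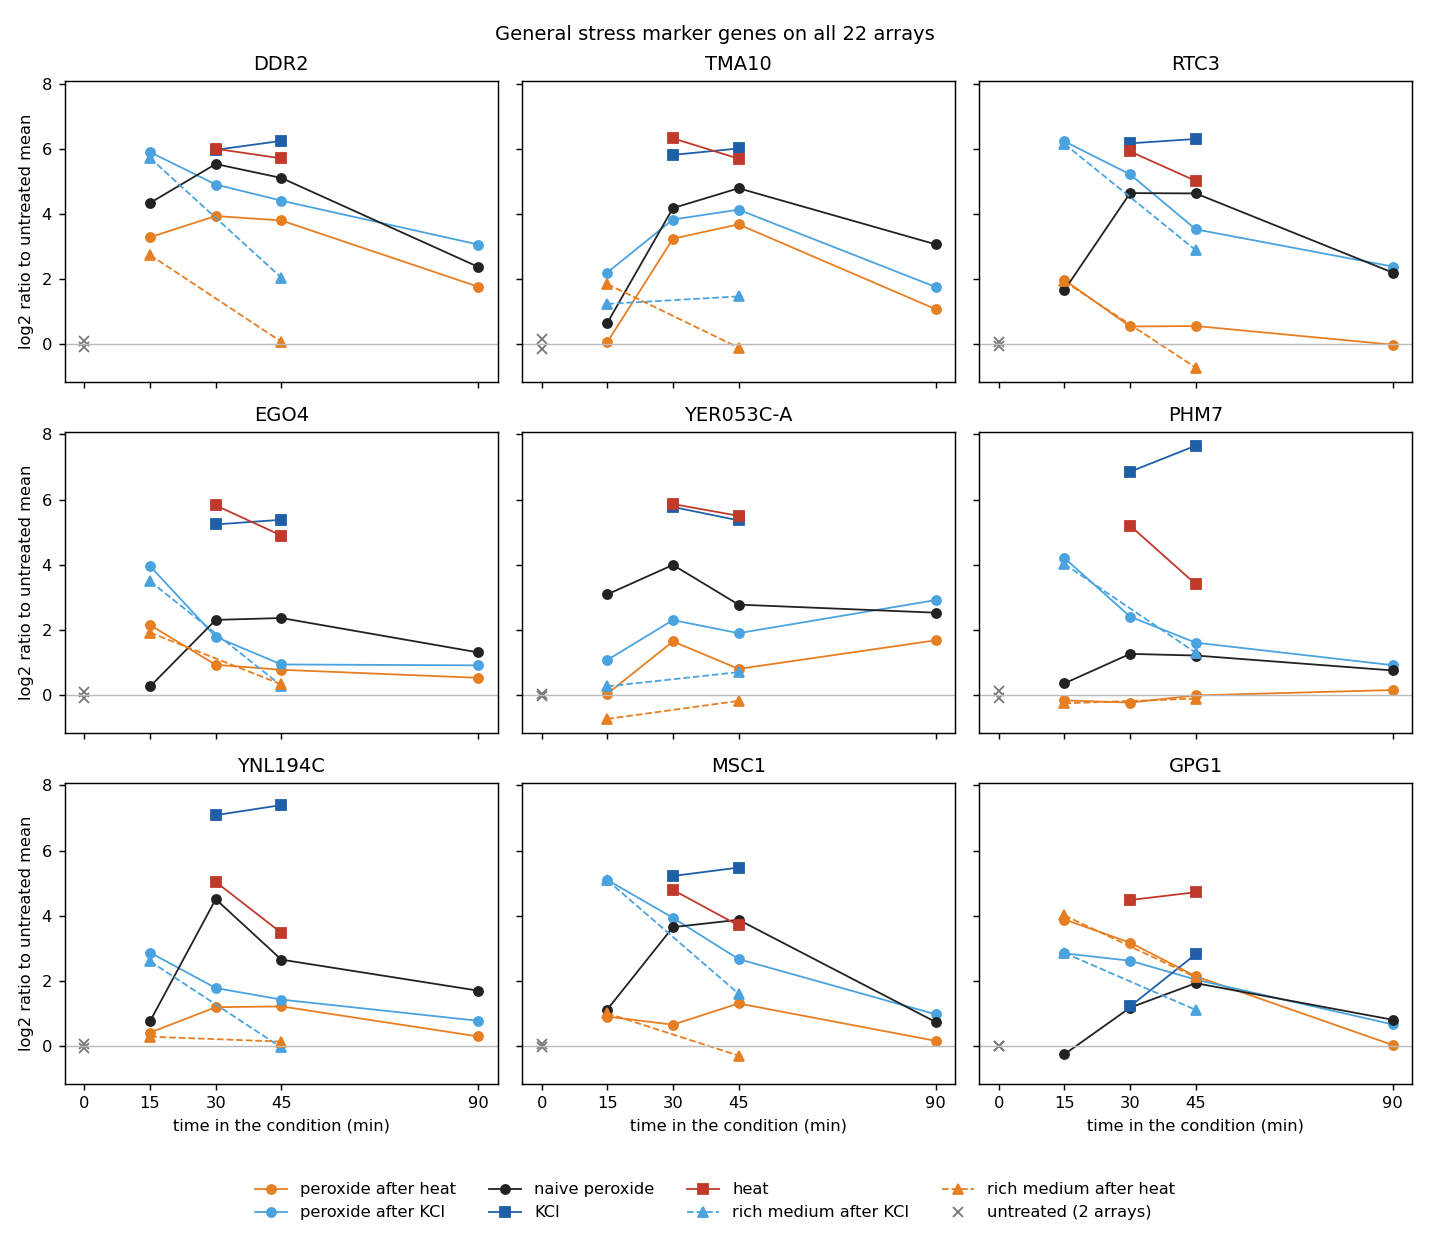
Log2 ratio to the untreated mean (vertical axis) against the time in each condition in minutes (horizontal axis) for the 9 genes; every point is 1 array, squares are first stresses, circles peroxide, triangles rich medium and crosses the untreated pair. Heat and KCl (squares) lie highest in most panels, GPG1 is highest in heat, and the circles after heat lie below the black circles of naive peroxide for most genes at 30 and 45 min.

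The first stresses were compared directly to ask where the shared markers differ. The ratios that chose the genes come from these same arrays, so a count of members beside the share of all genes is no independent support for a direction. Between KCl and heat, PHM7 was 7.77-fold higher in KCl (log2 2.96 ± 0.53, SE, n = 2 arrays per group, limma adjusted p = 0.00772), and YNL194C was 7.93-fold higher (2.99 ± 0.65, adjusted p = 0.0148). MSC1 was 2.15-fold higher (1.10 ± 0.32, adjusted p = 0.0390). GPG1 went the other way, 6.0-fold lower in KCl than in heat (-2.59 ± 0.48, adjusted p = 0.00874). RTC3 (0.77 ± 0.27, adjusted p = 0.0675) and DDR2 (0.25 ± 0.20) did not pass, nor did EGO4, TMA10 and YER053C-A, at -0.05, -0.10 and -0.11. Thus 3 of 9 were called higher, where 15.2% of all genes were, and 1 of 9 was called lower, where 15.4% were. The call of MSC1 did not hold without either untreated array, either KCl array, either naive peroxide array or the 45 min heat array (adjusted p between 0.0616 and 0.116), or after quantile normalization (0.0574). That of YNL194C did not hold without heat at 45 min (0.0750) or without KCl at 45 min (0.0504). RTC3 passed without heat at 30 min (0.00804). With all 22 arrays in one fit GPG1 and MSC1 did not pass (0.0882 and 0.568), and with the 4 arrays paired by time PHM7 and MSC1 did not (0.0646 and 0.148). Single arrays moved the sizes: the log2 difference of PHM7 was 2.06 without heat at 45 min and 3.86 without heat at 30 min. That of YNL194C was 2.20 and 3.77 and that of MSC1 0.56 and 1.65 without the same arrays, and that of GPG1 was -1.78 without KCl at 30 min and -3.39 without KCl at 45 min.

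Between naive peroxide at 30 and 45 min and KCl, 8 of 9 genes were called lower in peroxide (limma adjusted p under 0.05), where 23.5% of all genes were. For most of the genes the large rises behind the choice were those in heat and KCl, which favours lower values in peroxide, here and against heat. PHM7 was 65-fold lower (log2 -6.02 ± 0.53, adjusted p = 0.000541), YNL194C was at -3.66 ± 0.65, EGO4 at -2.98 ± 0.28 and YER053C-A at -2.18 ± 0.37. RTC3, MSC1, TMA10 and DDR2 followed at -1.60, -1.59, -1.43 and -0.79, with an adjusted p of 0.0171 or less for all 8, and GPG1 did not pass (-0.46 ± 0.48, adjusted p = 0.468). The call of DDR2 was lost without KCl at 45 min (adjusted p = 0.0682) or without naive peroxide at 45 min (0.0995), and with all 22 arrays (0.174), and that of GPG1 was gained without KCl at 30 min (0.0223). Without naive peroxide at 30 min the difference was -4.59 for YNL194C and -2.79 for YER053C-A, and without naive peroxide at 45 min it was -2.74 and -1.57.

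Against heat, 5 of 9 were called lower in naive peroxide, where 14.8% of all genes were. PHM7 (-3.06 ± 0.53), GPG1 (-3.05 ± 0.48) and EGO4 (-3.03 ± 0.28) had the largest differences, each about as large as a factor of 8 (8.37-fold, 8.28-fold and 8.15-fold), and YER053C-A (-2.30 ± 0.37) and TMA10 (-1.53 ± 0.27) also passed. RTC3 (-0.83 ± 0.27, adjusted p = 0.0590), DDR2 (-0.53 ± 0.20, adjusted p = 0.0864), YNL194C (-0.68 ± 0.65) and MSC1 (-0.48 ± 0.32) did not. Without heat at 30 min the adjusted p of TMA10 was 0.0569, and without naive peroxide at 30 min it was 0.0548. Without heat at 45 min, RTC3 and MSC1 passed as well (0.00686 and 0.0151). The difference of PHM7 was -2.17 without heat at 30 min and -3.96 without heat at 45 min, and that of YER053C-A was -2.91 without naive peroxide at 30 min and -1.69 without naive peroxide at 45 min. The comparisons share arrays, and the groups hold arrays of 30 and 45 min, so the change between both times is part of the error.

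**Figure D2:**
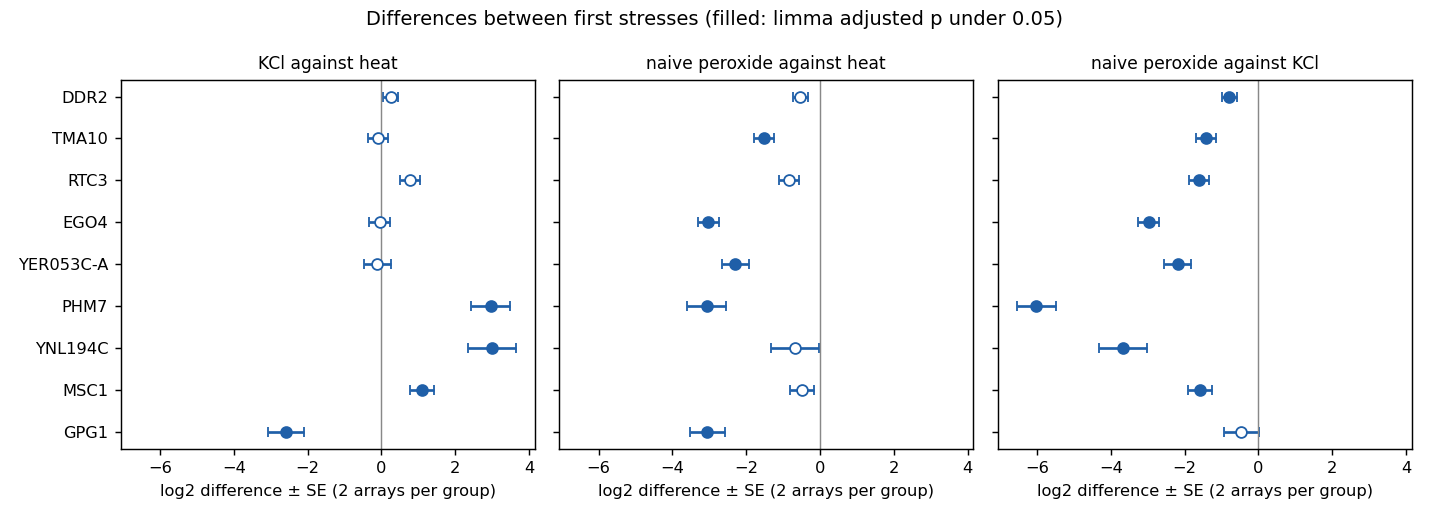
Log2 difference between first stresses (horizontal axis, points with limma standard errors, n = 2 arrays per group) for the 9 genes (vertical axis). Filled points passed at an adjusted p under 0.05: PHM7, YNL194C and MSC1 lie to the right and GPG1 to the left in KCl against heat, and in naive peroxide against KCl 8 of the 9 points are filled, all left of 0.

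The naive peroxide series showed an order of arrival, read from 1 array per time. At 15 min, 4 of 9 genes were at least 2-fold above untreated cells, where 3.29% of all genes were. DDR2 was already at 4.33 and YER053C-A at 3.09, RTC3 at 1.66 and MSC1 at 1.12. The remaining genes were at most 0.76 (YNL194C), with TMA10 at 0.65, PHM7 at 0.35, EGO4 at 0.26 and GPG1 at -0.26. DDR2, RTC3, YER053C-A, PHM7 and YNL194C were highest at 30 min, and TMA10, EGO4, MSC1 and GPG1 at 45 min. At 90 min 6 of 9 were still at least 2-fold above untreated cells (2.26% of all genes). TMA10 was then highest at 3.06, followed by YER053C-A at 2.53, DDR2 at 2.37 and RTC3 at 2.19, while MSC1 was down to 0.73. The choice of the genes favours the counts at 15 and 90 min, so nothing is read from them.

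In rich medium the signals of most of the genes fell within 15 min after heat. After heat, 8 of 9 were at least 4-fold lower at 15 min than at the end of heat, where 2.0% of all genes were; a gene must be high at the end of heat to fall so far. YER053C-A had a ratio of 5.50 at the end of heat, -0.74 at 15 min and -0.18 at 45 min, and so dropped 75.5-fold within 15 min, to below the untreated pair. TMA10 had 5.69, 1.84 and -0.11 at the same times, PHM7 had 3.40, -0.26 and -0.11, and YNL194C had 3.47, 0.28 and 0.13. RTC3 had 5.01, 1.92 and -0.73, EGO4 had 4.90, 1.91 and 0.32, DDR2 had 5.70, 2.73 and 0.07, and MSC1 had 3.70, 1.0 and -0.30. GPG1 was the exception, at 4.72, 4.01 and 2.11, keeping 61.0% of its end-of-heat signal at 15 min. At 45 min it was the only 1 of 9 still at least 2-fold above untreated cells (1.05% of all genes). Over the 57 genes that ended heat at least 8-fold above untreated cells the median change to 15 min was -2.32. All 9 members were among those 57 genes, of which 91.2% fell more than GPG1, and 1.75% more than YER053C-A.

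After KCl the set split. TMA10 had a ratio of 6.01 at the end of KCl, 1.23 at 15 min and 1.46 at 45 min of rich medium, and YER053C-A had 5.36, 0.26 and 0.70. YNL194C had 7.40, 2.60 and -0.05, and PHM7 had 7.66, 4.02 and 1.29. These 4 of 9 were at least 4-fold lower at 15 min than at the end of KCl, where 2.94% of all genes were, with drops of 27.4-fold, 34.3-fold, 27.8-fold and 12.4-fold. RTC3 hardly moved in that time, with 6.30, 6.15 and 2.88, and MSC1 (5.48, 5.09 and 1.60) and DDR2 (6.24, 5.71 and 2.04) kept 76.4% and 69.4% of their signal. GPG1 had 2.82, 2.85 and 1.10, and EGO4 lay between the groups with 5.38, 3.49 and 0.28. Over the 165 genes that ended KCl at least 8-fold above untreated cells, the median change to 15 min was -1.75. Every member but GPG1 was among those 165 genes, of which none fell more than YER053C-A. At 45 min 6 of 9 were at least 2-fold above untreated cells, where 1.01% of all genes were. A choice by high values favours this count and that of the drops, so nothing is read from either. RTC3, MSC1 and DDR2 reached log2 signals of 13.98, 14.44 and 14.10 at the end of KCl, near the highest gene of an array (14.73 to 14.91), and whether signals were compressed there was not tested; GPG1, at 10.25, was far from it.

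**Figure D3:**
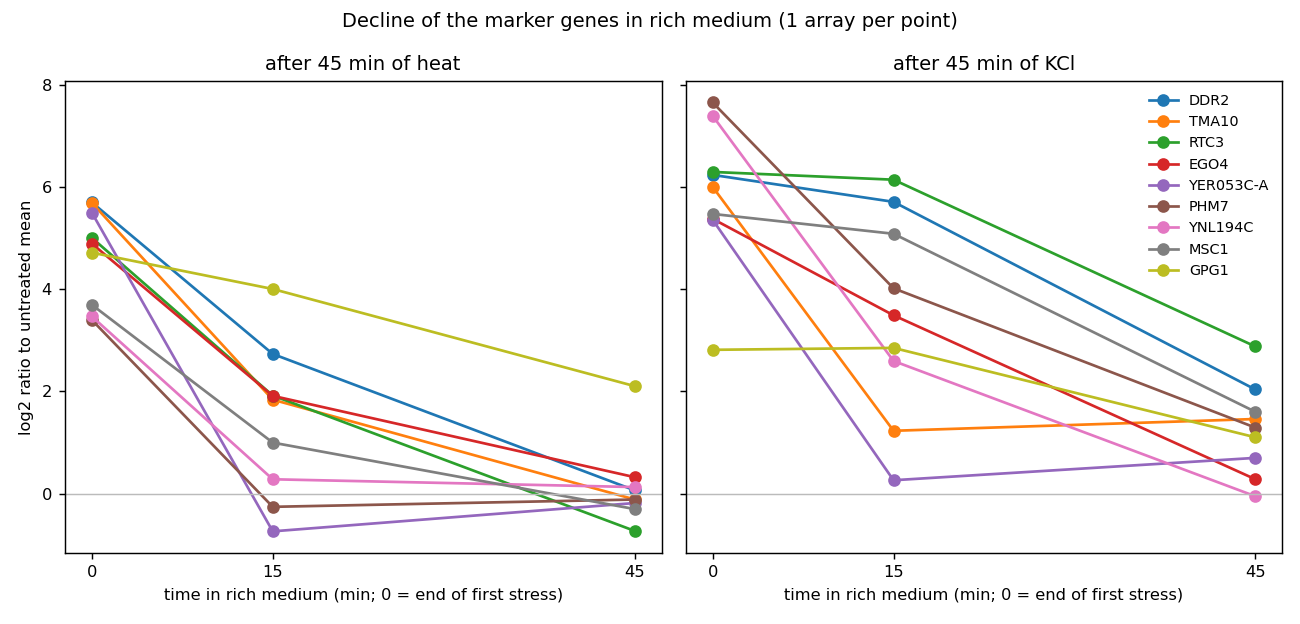
Log2 ratio to the untreated mean (vertical axis) at the end of the first stress and after 15 and 45 min in rich medium (horizontal axis), 1 array per point, for the 9 genes after heat (left) and KCl (right). After heat every line but that of GPG1 drops steeply by 15 min, whereas after KCl the lines of RTC3, MSC1, DDR2 and GPG1 stay nearly level to 15 min and fall by 45 min.

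Rich medium after KCl was compared with rich medium after heat at 15 and 45 min, to set the remaining signals side by side. No member passed in limma, where 0.0551% of all genes did. An unadjusted limma p under 0.05 was found for 6 of 9 members and for 457 of all 5449 genes. The KCl values had a part in the choice of genes, which favours high values soon after KCl, so nothing is read from this count. RTC3 was at 6.15 and 2.88 after KCl, against 1.92 and -0.73 after heat (log2 3.92 ± 0.42, n = 2 arrays per group, adjusted p = 0.0959). MSC1 differed by 3.0 ± 0.86, PHM7 by 2.84 ± 0.84, DDR2 by 2.48 ± 0.93 and YER053C-A by 0.94 ± 0.15. GPG1 was lower after KCl at both times (-1.08 ± 0.28, adjusted p = 0.532). With 1 array left out DDR2 ranged from 1.25 to 3.70, MSC1 from 1.81 to 4.18 and PHM7 from 1.86 to 3.82. RTC3 passed when either heat-primed peroxide array was left out of the shared fit (adjusted p = 0.0397 each time).

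Peroxide was set against rich medium after the same first stress, to see what the second stress added. At 15 min 0 of 9 were at least 2-fold higher in peroxide after heat, where 2.0% of all genes were, and 0 of 9 after KCl, where 2.13% were. The highest were YER053C-A (0.77, ranked 171 of 5449) and DDR2 (0.55, ranked 257) after heat, and TMA10 (0.96, ranked 118) and YER053C-A (0.81, ranked 152) after KCl. After heat TMA10 was lower in peroxide at 15 min, at 0.05 against 1.84 in rich medium, and only 7 of the 5449 genes had a lower difference. At 45 min TMA10 stood at 3.67 in peroxide and -0.11 in rich medium after heat, a 13.8-fold difference, and DDR2 at 3.79 in peroxide and 0.07 in rich medium, a 13.2-fold difference. These were the genes ranked 6 and 7 of 5449 by that difference. MSC1 (1.30 in peroxide, -0.30 in rich medium), RTC3 (0.55 and -0.73) and YNL194C (1.21 and 0.13) were also at least 2-fold higher, so that 5 of 9 were, against 2.61% of all genes. The ratios behind the choice of genes covered all groups and times, so nothing is read from this count. YER053C-A was at 0.80 in peroxide and -0.18 in rich medium, and EGO4 at 0.77 and 0.32. PHM7 (-0.02 and -0.11) and GPG1 (2.14 and 2.11) had nearly the same value in both media.

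After KCl TMA10 and DDR2 again had the largest differences at 45 min, and the order of the other members changed. TMA10 was at 4.13 in peroxide and 1.46 in rich medium (6.34-fold), DDR2 at 4.40 and 2.04 (5.15-fold), YNL194C at 1.42 and -0.05, YER053C-A at 1.90 and 0.70, and MSC1 at 2.67 and 1.60. These 5 of 9 were at least 2-fold higher in peroxide, where 5.01% of all genes were. The same limit of the choice holds, so nothing is read from this count either. RTC3, EGO4 and PHM7 differed by 0.64, 0.65 and 0.31, and GPG1 by 0.93. In limma with both times together, 0 of 9 passed after heat and 0 of 9 after KCl, where 0.165% of all genes passed in each. An unadjusted limma p under 0.05 was found for 230 of 5449 genes after heat and for 400 after KCl. Among the members 1 of 9 had it in each, YER053C-A. That gene was higher in peroxide at both times, by 0.88 ± 0.15 after heat (adjusted p = 0.247) and 1.0 ± 0.15 after KCl (adjusted p = 0.243), n = 2 arrays per group. DDR2 differed by 2.14 ± 0.93 after heat and 1.27 ± 0.93 after KCl, and TMA10 by 1.81 ± 1.23 after KCl. With 1 array left out, DDR2 ranged from 0.57 to 3.70 after heat and from 0.043 to 2.50 after KCl, and TMA10 from 1.16 to 2.46. The limma test of whether the difference itself changed with the first stress called 0 of 9 and 0 of all 5449 genes. The lowest unadjusted p of a member was 0.256 (GPG1).

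**Figure D4:**
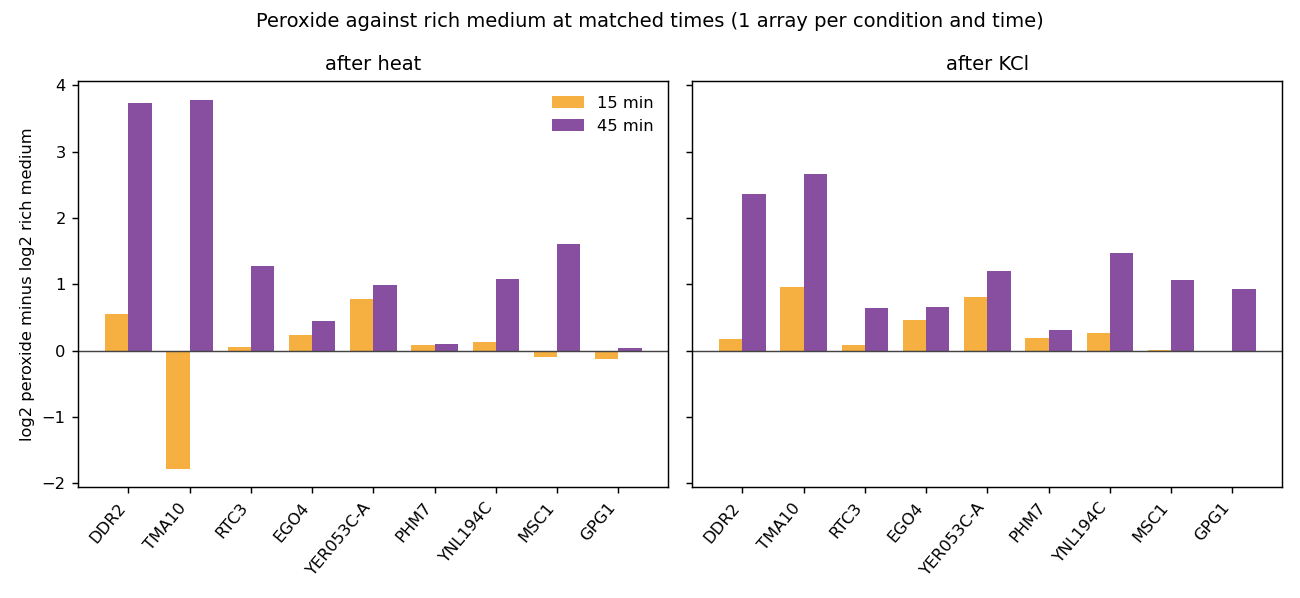
Log2 peroxide minus log2 rich medium (vertical axis) at 15 and 45 min for the 9 genes (horizontal axis), after heat (left) and after KCl (right), 1 array per condition and time. DDR2 and TMA10 have the tallest 45 min bars after both first stresses (3.73 and 3.79 after heat, 2.36 and 2.66 after KCl), and TMA10 after heat has the one long bar below 0, at 15 min.

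Heat-primed and naive peroxide were compared over the 4 matched times, to ask how an earlier heat stress changed the later response. The naive values had a part in the choice of genes, and this favours lower values in primed cells. YER053C-A was at 0.03, 1.64, 0.80 and 1.68 in heat-primed cells (15, 30, 45 and 90 min), against 3.09, 3.99, 2.77 and 2.53 in naive cells. It was lower at every time and was the only 1 of 9 to pass (log2 -2.06 ± 0.35, n = 4 arrays per group, adjusted p = 0.0392), where 1.8% of all genes were lower. RTC3 was at 1.97, 0.54, 0.55 and -0.02 in heat-primed cells, against 1.66, 4.64, 4.62 and 2.19 in naive cells (-2.52 ± 0.82, adjusted p = 0.0867). It was higher in heat-primed cells at 15 min and lower at the later times. DDR2 was at 3.28, 3.93, 3.79 and 1.76 in heat-primed cells, against 4.33, 5.53, 5.10 and 2.37 in naive cells (-1.14 ± 0.36, adjusted p = 0.0799). TMA10 was at 0.05, 3.23, 3.67 and 1.07, against 0.65, 4.17, 4.78 and 3.06 in naive cells (-1.16 ± 0.38, adjusted p = 0.0895). Both were lower at every time but kept the shape of the naive course.

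YNL194C (-1.63 ± 0.62), MSC1 (-1.59 ± 0.74), PHM7 (-0.96 ± 0.57) and EGO4 (-0.47 ± 0.70) did not pass. PHM7 stayed between -0.24 and 0.15 in heat-primed peroxide, close to untreated cells at all 4 times. GPG1 was higher in heat-primed cells at the first 3 times, at 3.88, 3.17, 2.14 and 0.03, against -0.26, 1.17, 1.92 and 0.80 in naive cells (1.39 ± 0.66, adjusted p = 0.184). In rich medium after heat GPG1 was at 4.01 and 2.11 at 15 and 45 min, close to the heat-primed values at those times. The median difference of the 9 genes was -0.35, -1.60, -1.44 and -0.78 at the 4 times, against -0.01, -0.02, -0.01 and 0.01 over all genes. At 90 min 3 of 9 were at least 2-fold above untreated cells in heat-primed peroxide (0.532% of all genes). Ratios to untreated cells chose the genes, so nothing is read from this count. The call of YER053C-A rested on single arrays: its adjusted p lay between 0.0627 and 0.178 without naive peroxide at 30 or 45 min, without heat-primed peroxide at 15, 30 or 45 min, or without KCl-primed peroxide at 30, 45 or 90 min. Without naive peroxide at 15 min 5 of 9 passed (TMA10, RTC3, EGO4, YER053C-A and YNL194C). Without KCl-primed peroxide at 15 min 4 of 9 did (DDR2, TMA10, YER053C-A and YNL194C). Calls over all genes moved as well, between 1 and 829 with an array left out, so nothing about the members is read from these counts.

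In KCl-primed cells 8 of 9 genes were above their naive values at 15 min of peroxide, and 4 of 9 were below them at 90 min. The KCl values had a part in the choice of genes, which favours high values soon after KCl, so nothing is read from these counts. At 15 min the 9 genes had a median difference of 0.18 between KCl-primed peroxide and rich medium after KCl. RTC3 was at 6.22, 5.21, 3.52 and 2.38 in KCl-primed cells, against 1.66, 4.64, 4.62 and 2.19 in naive cells (1.06 ± 0.82, n = 4 arrays per group, adjusted p = 0.514). PHM7 was at 4.20, 2.40, 1.60 and 0.91, against 0.35, 1.26, 1.21 and 0.75 in naive cells (1.39 ± 0.57, adjusted p = 0.246), and was higher at all 4 times. YER053C-A was at 1.07, 2.30, 1.90 and 2.91, against 3.09, 3.99, 2.77 and 2.53 in naive cells (-1.05 ± 0.35, adjusted p = 0.186). It was the one gene of the set that was lower in KCl-primed cells at 15 min. TMA10 was at 2.19, 3.82, 4.13 and 1.75 in KCl-primed cells, against 0.65, 4.17, 4.78 and 3.06 in naive cells, and YNL194C at 2.86, 1.78, 1.42 and 0.77, against 0.76, 4.50, 2.65 and 1.69 in naive cells. Both were above the naive value at 15 min and below it at the other times. GPG1 differed by 1.13 ± 0.66. None of the 9 passed, where 0.147% of all genes did. An unadjusted limma p under 0.05 was found for 2 of 9 (PHM7 and YER053C-A) and for 1019 of all 5449 genes. Without naive peroxide at 90 min YER053C-A passed (-1.49, adjusted p = 0.0286). The median difference of the 9 genes from naive cells was 3.10 at 15 min and -0.35, -0.88 and 0.16 at 30, 45 and 90 min. Over all genes it was -0.01, -0.02, -0.02 and -0.02 at the 4 times. At 90 min 4 of 9 were at least 2-fold above untreated cells in KCl-primed peroxide (1.16% of all genes), and nothing is read from this count either.

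Set directly against KCl-primed cells, heat-primed cells had a median difference of -1.01 for the 9 genes, against 0.02 over all genes. GPG1 (0.27) was the one member that was not lower. In limma 0 of 9 passed, where 0.128% of all genes did. An unadjusted limma p under 0.05 was found for 6 of 9 and for 1112 of all 5449 genes. The heat and KCl values had a part in the choice, and several members were higher in KCl. So nothing about the set is read from these counts or from the median. RTC3 was at 1.97, 0.54, 0.55 and -0.02 in heat-primed peroxide, against 6.22, 5.21, 3.52 and 2.38 in KCl-primed peroxide, so the groups did not overlap (-3.57 ± 0.82, n = 4 arrays per group, adjusted p = 0.144). MSC1 differed by -2.42 ± 0.74, PHM7 by -2.35 ± 0.57, DDR2 by -1.37 ± 0.36, YER053C-A by -1.01 ± 0.35 and TMA10 by -0.97 ± 0.38, with an adjusted p between 0.144 and 0.225 for the 6. RTC3 passed when naive peroxide at 15 min was left out of the shared fit (adjusted p = 0.0271).

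The 9 genes were not one profile. Over the 22 arrays the 36 pairs had Pearson r between 0.16 (GPG1 with YER053C-A) and 0.97 (RTC3 with MSC1), with a median of 0.75. These points share arrays and conditions, and the genes were chosen for common rises, so the values are a description. With the mean of the set, EGO4, MSC1, YNL194C and RTC3 had r of 0.94, 0.94, 0.93 and 0.92, PHM7 and DDR2 0.91 and 0.90, TMA10 and YER053C-A 0.86 and 0.80, and GPG1 0.51. The genes outside the set most like its mean were YBR085C-A, YET1, FMP33, TSL1 (a trehalose synthase subunit), DCS2, XBP1 (a stress-induced repressor), EDC2, YET3, TMA17 and CYC7, with r from 0.98 to 0.96.

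Each gene had its own nearest neighbours over the 22 arrays. DDR2 was most like YDL124W, YMR315W and the glucokinase gene GLK1 (r = 0.97, 0.96 and 0.94). TMA10 was most like AFR1, YPF1 and ATH1, the acid trehalase gene (0.93, 0.92 and 0.92). RTC3 and MSC1 shared the glutamate decarboxylase gene GAD1 as nearest gene (both 0.98) and were each other's second nearest. EGO4 was nearest to SSE2, an Hsp110 chaperone gene, then GPX1 and YHR140W (0.98, 0.97 and 0.97). YER053C-A was nearest to OXR1, YPC1 and FYV10 (each 0.95), and YNL194C to PRM8, BDH2 and YIL055C (each 0.98). PHM7 was nearest to PDR15, a transporter gene, the hexose transporter gene HXT5 and TPS2, a trehalose phosphatase gene (0.97, 0.96 and 0.95). GPG1 was nearest to HSP26, a small heat shock protein gene, then TDH1 and MOH1 (0.94, 0.90 and 0.89).

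Relatives of the members did not all move with them. FMP45, of the same family as YNL194C, had ratios of 2.03 and 1.53 in naive peroxide at 30 and 45 min, 5.94 and 6.41 in KCl, and 4.90 and 2.97 in heat, whereas SUR7 lay between -0.20 and -0.79 on those arrays. STF2, related to TMA10, was at 3.13 and 3.02 in naive peroxide, 3.31 and 3.88 in KCl, and 3.53 and 3.49 in heat. HOR7, related to DDR2 and already at 13.55 in untreated cells, was at 0.54 and 0.56 in naive peroxide, 1.09 and 1.09 in KCl, and 1.07 and 1.02 in heat. EGO2, the relative of EGO4, was between -0.44 and 0.62 on the same arrays. Of the Csc1 family to which PHM7 belongs, CSC1 was at 1.10 and 0.93 in heat and RSN1 at -1.79 and -1.52. In KCl against heat, of the 7 relatives 1 was higher (FMP45, 2.24) and 1 lower (EGO2, -0.81), and 5 did not pass. Of all genes 15.2% were called higher and 15.4% lower, so nothing is read from these counts.

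The transcripts of the regulators were measured on the same arrays. Of 21 measured regulators of the Msn2 and Msn4, protein kinase A, osmotic and peroxide pathways, 7 were on average over 30 and 45 min at least 2-fold above untreated cells in heat (13.4% of all genes), 9 in KCl (16.5%) and 4 in naive peroxide (7.03%). In heat 1 was at least 2-fold below them, TPK3, a protein kinase A subunit gene, at -1.10 (10.5% of all genes). The stress-induced repressor gene XBP1 was highest in heat (mean 3.52) and naive peroxide (2.67), and the zinc finger gene USV1 in KCl (4.58). MSN2 was at 1.51 and 1.29 in KCl and 0.50 and 0.22 in heat, and MSN4 at 1.22 and 1.18 in KCl and 1.10 and 0.34 in heat. YAP1, the peroxide-responsive activator gene, was at 1.43, 1.51, 1.13 and 0.06 in naive peroxide at 15, 30, 45 and 90 min. GPR1, the receptor gene of the module to which GPG1 belongs, was at 0.57 and 1.20 in KCl and 0.99 and 0.88 in heat. GPA2, its G protein alpha subunit gene, was at 2.10 and 1.89 in KCl and 1.23 and 0.88 in heat. GPA2 was higher in KCl on both arrays, and the 2 stresses overlapped for GPR1.

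A list of 60 other general stress genes gave the wider programme. In KCl against heat 17 of 60 were higher, 5 lower and 38 did not pass, beside the 15.2% higher and 15.4% lower of all genes. The median was 0.26, against 0.25 for the 9 genes and -0.01 for all genes; TKL2, a transketolase gene, had the highest difference (4.08) and GPM2 the lowest (-1.71), with ratios to untreated cells of 3.26 and 3.64 in KCl and 5.37 and 4.95 in heat. In naive peroxide against heat 2 were higher and 37 lower, where 10.6% and 14.8% of all genes were, with a median of -1.01 against -1.53 for the 9 genes. In naive peroxide against KCl 1 was higher and 52 lower, where 18.8% and 23.5% of all genes were, with a median of -1.32 against -1.60, and HXT5 was lowest at -6.24. In heat-primed against naive peroxide 2 were lower, where 1.8% of all genes were, and the other 58 did not pass. HSP78, a mitochondrial disaggregase gene, was lowest at -1.79 and HSP26 highest at 1.52. The medians were -0.69 for the list and -1.16 for the 9 genes. In rich medium after KCl against rich medium after heat 1 was higher and 59 did not pass, where 0.0551% of all genes passed. The 1 was NQM1 (3.54 ± 0.17, limma adjusted p = 0.00807). The median was 1.06, against 1.07 for the 9 genes. SIP18, a hydrophilin gene, had the highest difference at 4.93 but did not pass (limma adjusted p = 0.0959).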

How the data were processed

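Total RNA of 22 samples was measured on Affymetrix arrays. The authors deposited log2 values per probe set, made with RMA per the submitters' processing notes; its version and settings are not given in the sources used here. Another table that the authors deposited gives the log2 fold change of each array over time 0, per the file headers, for 5900 of the 10928 probe sets; it served as an alternative. Probe sets were joined to genes through the array annotation and RefSeq gene IDs: 5498 named 1 S. cerevisiae gene, and 47 genes had more than one, of which the brightest was kept (5449 genes). Not used were 1746 probe sets naming other genes, 3683 not in the annotation and 1 naming several. No scaling or filter was added.

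All genes entered limma 3.58.1 (R 4.3.3), with Benjamini-Hochberg adjustment over the 5449 and a threshold of 0.05. First stresses used 8 arrays (untreated, and the 30 and 45 min arrays of heat, KCl and naive peroxide) and fitted a level for each group. Peroxide series used 12 arrays and the rich medium comparisons 8, with group and time terms. No treatment was repeated at one time and separate cultures are not stated, so a p-value does not measure the spread between cultures. In the first stress fit the spread came from the change between 30 and 45 min and from the untreated pair. In the fits with group and time terms it was the departure of the group differences from a constant over time. Part of the spread may be technical, and the number of arrays limits the precision. The fits were tested on simulated data. Members, lists and tests were chosen with earlier results of these data known. Named besides the members are their relatives, pathway regulators, the 3 genes nearest to each and the 10 nearest to their mean, the genes ranking highest outside the set, and the extremes of the general stress list. Promoter motifs were not analysed here.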

Additional observations from a re-analysis of the deposited data

How the results depend on the processing

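Differences of the members were refitted with quantile normalization, a common median, the dimmest 25% of genes left out (which leaves out 3 of the 9 members), limma's trend and robust options, the mean of probe sets, the authors' fold-change table, all 22 arrays in one fit, another time term, and each array left out; a group left with 1 array was assumed to vary like the others. Ratios to untreated cells were also taken over either untreated array alone. Of 1377 refitted differences 1286 kept direction and side of the threshold, 29 no longer passed, 17 newly passed and 45 changed sign, 0 of the last past the threshold in either fit; their causes were not tested.

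KCl against heat called 1668 genes and 4 members. It called 848 to 1874 genes and 2 to 5 members with an array left out, the lowest without heat at 45 min (848 and 2; 2 members also without KCl at 45 min), and 1037 without either untreated array. Pairing arrays by time as a replicate block (4 arrays) left 148 genes and 2 members (adjusted p of PHM7 0.0646, of MSC1 0.148), the dim filter 2 members, and all 22 arrays 2. Naive peroxide against heat called 1388 genes and 5 members. With an array left out it called 460 to 1903 genes and 4 to 7 members, with 460 without heat at 30 min, 511 and 592 without naive peroxide at 30 and 45 min, and 731 without either untreated array; the dim filter left 3 members, and with the time block RTC3 and YNL194C passed (0.0399 and 0.0300). Naive peroxide against KCl called 2306 genes and 8 members, and 1402 to 2340 genes and 7 to 9 members with an array left out (1520 and 1402 without naive peroxide at 30 and 45 min); the dim filter left 5 members, and the time block took the call from DDR2 (0.0527).

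Heat-primed against naive peroxide called 182 genes and 1 member, 434 genes after quantile normalization, 344 (0 members) with the dim filter, 312 with trend and robust settings, 333 from the authors' fold-change table, 17 with all 22 arrays and 6 (0 members) with no time term, that is no replicate block; with an array left out it called 1 to 829 genes and 0 to 5 members. KCl-primed against naive peroxide called 8 genes and 0 members, 4 with the dim filter, 2 with no replicate block, and 0 to 129 genes and 0 to 1 member with an array left out. Heat-primed against KCl-primed peroxide called 7 genes and 0 members, 4 with the dim filter, 4 with no replicate block, and 0 to 45 genes and 0 to 1 member with an array left out. Peroxide against rich medium called 9 genes after heat and 9 after KCl, 0 with all 22 arrays in each, and 0 to 10 and 0 to 5 with an array left out, with 0 members throughout. Rich medium after KCl against rich medium after heat called 3 genes and 0 members, 1 with the dim filter, 0 with all 22 arrays, 0 with no replicate block, and 0 to 2 genes and 0 to 1 member with an array left out.

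Of the 45 sign changes, 14 were in peroxide against rich medium after heat, 10 in the same after KCl, 7 in KCl-primed against naive peroxide, 5 in KCl against heat, 3 in naive peroxide against heat, 3 in rich medium after KCl against rich medium after heat, and 1 in each of the other 3 comparisons. Among differences whose values are printed above, these changed sign with an array left out, none having passed. In KCl against heat, TMA10 ranged from -0.41 to 0.21, EGO4 from -0.51 to 0.41 and YER053C-A from -0.32 to 0.0914. In naive peroxide YNL194C ranged from -1.60 to 0.25 and MSC1 from -1.03 to 0.0612 against heat, and GPG1 from -1.27 to 0.34 against KCl. EGO4 ranged from -1.42 to 0.0161 in heat-primed against naive peroxide, and RTC3 from -0.00025 to 1.68 in KCl-primed against naive peroxide. The median ratio of the members to untreated cells over the 6 arrays of the first stresses was 5.07, and 4.89 after quantile normalization. The median change to 15 min in rich medium after heat was -3.09, and -2.96 after quantile normalization and -2.98 from the authors' fold-change table.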
